A study of Mus musculus with 10 samples.

Results

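The response of the adult mouse ileum to Sox2 and Oct4 given together was set against the sum of the responses to each alone. For every gene the Sox2 response in the presence of Oct4 (both transgenes minus Oct4 alone) was compared with the Sox2 response in its absence (Sox2 alone minus controls), all after doxycycline (DOX), and the difference between the 2 responses is called the interaction below. A positive interaction means that the level with both transgenes lay above the sum of the single responses, and a negative one that it lay below. The comparison takes 8 of the 10 arrays of the series, 2 for each of 4 groups: rtTA controls (labelled as having no TetOP-Sox2 transgene), TetON-Sox2 animals, TetON-Oct4 animals and TetON-Oct4 X TetON-Sox2 animals. The mice were C57BL/6, aged 6 to 8 weeks, and drank 2 mg/ml DOX in water with 1% sucrose for 2 days. The other 2 arrays came from TetON-Sox2 animals without DOX, for which the labels do not record sucrose. These arrays entered the fit for the spread and served as another base. Total RNA from chopped ileum, labelled with Cy3, was hybridised to one-colour Agilent arrays. The labels do not say which promoter drives rtTA, whether each array is a separate animal, or the sex of the animals, so p-values measure the spread between arrays, which may be technical.

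In the TetON system, rtTA is a transcription factor that switches on a transgene behind a tetracycline operator when DOX is present. Sox2 is an HMG-box factor of the pluripotent epiblast that later marks the oesophagus and stomach and is not normally made in the intestine, where the homeobox factor Cdx2 sets epithelial identity. Oct4 (gene Pou5f1) is a POU factor of pluripotent cells, absent from most adult tissues, that binds the octamer element. In pluripotent cells the 2 proteins occupy many enhancers together, on neighbouring octamer and Sox elements.

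Signals are given as log2 of the processed signal minus the array's 75th percentile, so that 0 is the level of the gene at that percentile. The percentile lay at signals of 544 to 1613, 63.5 to 70.5% of probes were well above background, no probe was saturated, and replicate arrays correlated at 0.959 to 0.984 over genes. A level "not well above background" is a bound, and a fold against it is given as at least the fold over the lowest signal that was well above background. The 4 TetON-Sox2 arrays shared 1 slide, the rtTA and double-transgenic arrays shared another, and the Oct4 arrays the remaining slide, so that slide and group cannot be told apart in the interaction. Sex-linked genes moved with the same groups. The 5 on the array (Xist, Eif2s3y, Uty, Kdm5d, Ddx3y) were female-like on both rtTA arrays, both double-transgenic arrays and 1 Oct4 array, and male-like on the Sox2 arrays and the other Oct4 array, and none was called by its brightest probe (adjusted p 0.0577 to 0.0738), although another Uty probe was (-6.81). Their part in the other results was not tested. The 2 control groups, rtTA with DOX and TetON-Sox2 without, differed in 0 of 19049 genes by limma (0% called, lowest adjusted p = 0.102, 1068 genes at an unadjusted p under 0.05). That count does not show them to be alike: Eif2s3y read -9.23 and -8.49 with rtTA and 2.06 and 2.10 in the untreated group, and the summed signal of MHC class II genes was 119 to 193 and 324 to 410 times the array's 75th percentile.

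By the test, 270 genes departed from additivity, in a contrast where slide and group cannot be told apart. Limma called 270 of 19049 genes in the interaction at an adjusted p under 0.05 (1.42%), 150 above additivity (0.787%) and 120 below (0.630%), and 3505 genes had an unadjusted p under 0.05. The median interaction of all genes was 0.07. The called interactions ranged from 1.90 to 15.60 in size with a median of 3.53 on the log2 scale, beside a median standard error of 0.56, and 269 of the 270 were larger than a 4-fold departure. Of the called genes 137 were measured in all 4 groups (73 above and 64 below additivity, among 16226 such genes), 131 were well above background in 1 to 3 groups, and 2 in none. For the genes not measured in all 4 groups the size of the interaction rests in part on levels that are bounds. Whether they depart by more than 4-fold is therefore uncertain. The count moved with single arrays: it was 24 without rtTA replicate 1, 58 without rtTA replicate 2, 44 without Sox2 replicate 1, 175 without Oct4 replicate 2, 105 with either array of untreated TetON-Sox2 mice left out and 556 without double-transgenic replicate 1.

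More genes were called for Sox2 than for Oct4. Limma called 1596 genes (8.38%) for Sox2 alone against rtTA and 830 (4.36%) for both transgenes against Oct4 alone, whereas it called 192 (1.01%) for Oct4 alone against rtTA and 495 (2.60%) for both transgenes against Sox2 alone. Both transgenes against rtTA gave 1208 called genes (6.34%). Only this last comparison was made on the same slide, so slide and group cannot be told apart in the others. Sex-linked genes also differed between the groups of those other comparisons. The Sox2 responses with and without Oct4, which share no array, correlated at r = 0.32 across the genes tested, given here as a description since genes are not independent replicates. Of the called genes, 62 above and 58 below additivity had a Sox2 response that was called only in the absence of Oct4. In 59 above and 36 below it was called only in its presence. Over all genes tested these classes held 1331 and 565 genes. In 35 genes both Sox2 responses were called and pointed in opposite directions (17 above and 18 below additivity), which is every such gene tested. In 5 above and 4 below both were called in the same direction (230 over all genes), and in 7 above and 4 below neither was (16888 over all genes). The contrast is the difference of these 2 responses, so the counts are a description.

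**Figure D1:**
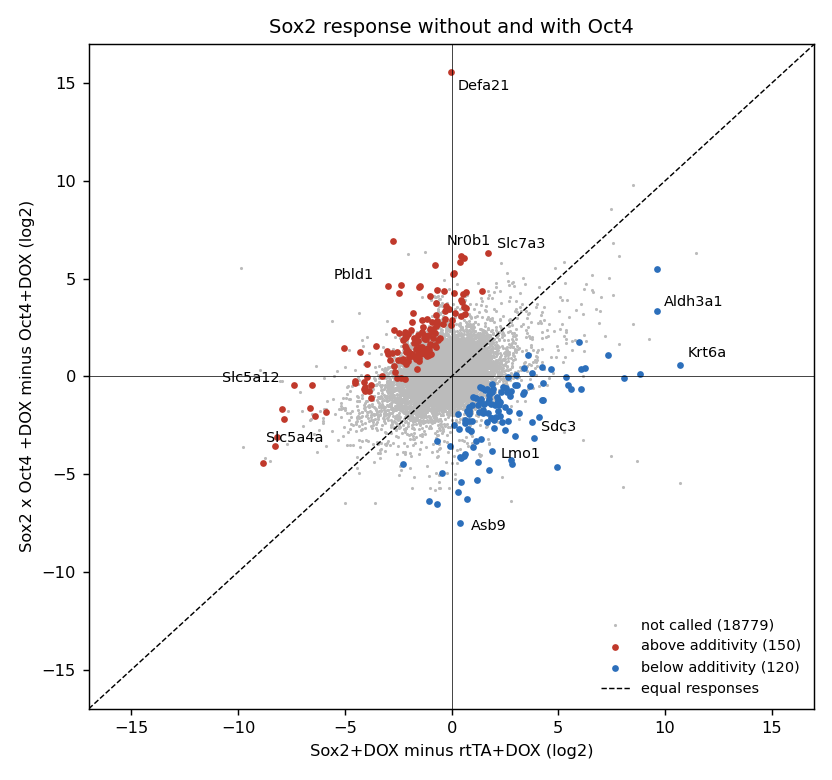
Each point is 1 of 19049 genes, with the Sox2 response without Oct4 on the x axis and with Oct4 on the y axis (both log2 differences of group means, 2 arrays per group). The 150 genes called above additivity (red) lie above the dashed line of equal responses and the 120 called below (blue) lie under it, and of the called genes Defa21 and Krt6a sit farthest from it on either side.

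A gene can depart from additivity because any of the 4 groups stands apart, so for each called gene the group farthest from the median of the other 3 was recorded, with signals under the lowest one well above background set to that signal. The level with both transgenes stood above the other 3 groups in 62 genes, and in 58 of these its arrays did not overlap theirs. Oct4 alone stood above in 46 genes (39 without overlap) and Sox2 alone above in 41 (39 without overlap). Sox2 alone stood below the rest in 39 genes (32), rtTA above in 30 (29), rtTA below in 25 (20), Oct4 alone below in 17 (15) and both transgenes below in 10 (7). Since the contrast chose these genes, the counts are a description, and they are to be read beside the same counts over all genes tested. There both transgenes stood above the rest in 2794 genes (1370 without overlap), Oct4 alone above in 2201 (820) and Sox2 alone above in 2667 (1264). Sox2 alone stood below in 3245 (1539), rtTA above in 2226 (1114), rtTA below in 2497 (1027), Oct4 alone below in 1468 (575) and both transgenes below in 1951 (917).

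**Figure D2:**
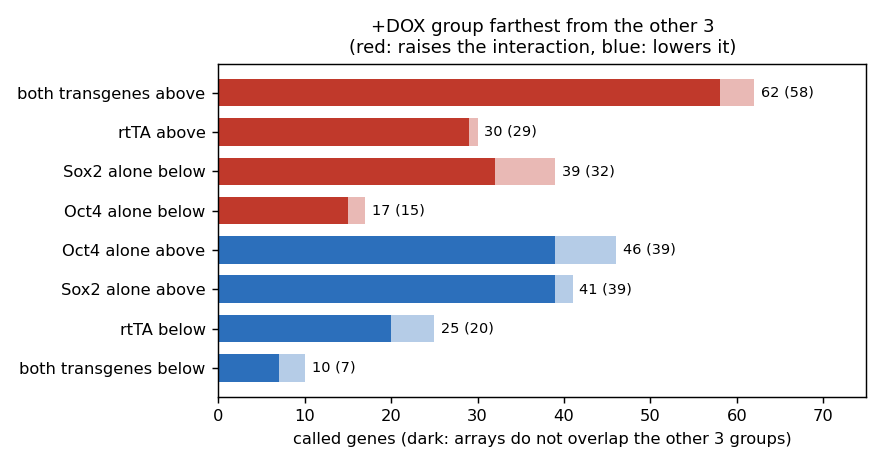
Bars count the called genes by the group that lies farthest from the other 3 and its side, with the number whose 2 arrays do not overlap those of the other groups as the dark part and in brackets, and red or blue for a shift that raises or lowers the interaction. Both transgenes above the rest (62 genes) and Oct4 alone above the rest (46 genes) are the longest bars.

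The transgenic transcript bears on how the groups can be compared. Pou5f1 was not well above background on the rtTA arrays (-9.28 and -8.57) or the Sox2 arrays (-8.52 and -8.51). It stood at 6.20 and 4.79 with Oct4 alone and at 2.64 and 0.92 with both transgenes. The Oct4 transcript was therefore present in the groups labelled with it, at least 366-fold over rtTA with both transgenes and at least 4802-fold with Oct4 alone. It was 13.1-fold lower with both transgenes than with Oct4 alone (adjusted p = 0.0189, limma), with no overlap of the arrays. The probes of Sox2 and Nanog were not well above background in any group and were not tested, so the Sox2 transgene is not checked here by its own probe. Sox21, a related Sox gene of the stomach and oesophagus, was at -3.57 and -4.92 with rtTA, 3.33 and 1.40 with Sox2, -3.28 and -3.88 with Oct4 and 0.98 and 0.44 with both. It was higher with Sox2 than without it on both backgrounds (by 6.61 on the log2 scale without Oct4, adjusted p = 0.00192, and by 4.29 with it, adjusted p = 0.0137), and its interaction of -2.31 (SE 0.93) did not pass the test (adjusted p = 0.237). Cdx2 had an interaction of -0.41 (SE 0.70, adjusted p = 0.796).

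Several genes were high only where both transgenes were present. Nr0b1 (Dax1), an orphan nuclear receptor of the pluripotency network of embryonic stem cells, did not rise well above background on the 8 arrays without both transgenes and stood at -1.81 and -1.47 with both transgenes. That is at least 34.2-fold over rtTA, 26.1-fold over Sox2 alone and 20.2-fold over Oct4 alone, and its interaction was 5.72 (SE 0.51, adjusted p = 0.00728). It was the single called member of the 19 tested genes of the list of pluripotency genes and Oct4-Sox2 targets, whose median interaction was 0.13 beside 0.07 for all genes and changed sign under 3 other scalings. The probe lies at chrX:82448549-82448608 (build NCBI36/mm8). The 250 bases before the annotated start of Nr0b1 (RefSeq, GRCm38.p6, chrX:86191525-86191774, plus strand) are shown because its level appeared with both factors. Capitals mark a match to a Sox motif (ACAAAG), and neither octamer nor octamer core was found on either strand of these letters.
Nr0b1: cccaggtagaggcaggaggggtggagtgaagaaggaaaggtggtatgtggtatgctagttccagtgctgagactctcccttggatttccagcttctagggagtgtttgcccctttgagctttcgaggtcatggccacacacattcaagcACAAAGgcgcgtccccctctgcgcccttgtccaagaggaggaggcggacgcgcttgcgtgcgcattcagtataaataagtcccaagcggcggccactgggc

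Several membrane transporters had their highest level under both transgenes. Slc7a3, a cationic amino acid transporter, read -4.22 and -4.48 with rtTA, -2.70 and -2.61 with Sox2, -3.77 and -2.53 with Oct4 and 3.27 and 3.04 with both transgenes. Slc7a3 was thus 3.23-fold higher with Sox2 alone than with rtTA (limma, adjusted p = 0.0421). It was 78.7-fold higher with both transgenes than with Oct4 alone (adjusted p = 0.000581), and the interaction was 4.61 (SE 0.58, adjusted p = 0.0148). Slc18a2 (VMAT2), the vesicular monoamine transporter, read -3.75 and -3.02 with rtTA, -4.80 and -4.98 with Sox2, -4.26 and -4.54 with Oct4 and 0.54 and -0.24 with both. It was lower by 1.51 on the log2 scale with Sox2 alone than with rtTA (limma, adjusted p = 0.0427). With both transgenes it was higher by 4.55 than with Oct4 alone (adjusted p = 0.00121), giving an interaction of 6.05 (SE 0.52, adjusted p = 0.00728). Slc14a1, a urea transporter, did the same on a higher level: it fell by 2.48 with Sox2 alone and by 3.24 with Oct4 alone, yet stood at 1.45 and 1.07 with both transgenes, above the 0.10 and 0.42 of rtTA, with an interaction of 6.73 (SE 0.62, adjusted p = 0.00858). Slc22a3, an organic cation transporter chosen after its values were seen, was well above background only with both transgenes (-2.56 and -2.59, at least 10.6-fold over Oct4 alone; interaction 5.21, SE 0.87, adjusted p = 0.0370). The arrays with both transgenes did not overlap any other +DOX group in these 4 genes.

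Transcription factors were also found in this group. Foxj1, the factor that switches on the genes of motile cilia, was not well above background with Sox2 or Oct4 alone and on 1 rtTA array (-6.96), and read -5.94 on the other. It stood at -1.44 and -2.11 with both transgenes, at least 18.4-fold over Oct4 alone, with an interaction of 6.47 (SE 0.83, adjusted p = 0.0161). Of cilium genes chosen after their values were seen, Ak7 was highest with both transgenes (-0.74 and -0.11, against -2.40 and -1.82 with Oct4; interaction 3.36, SE 0.47, adjusted p = 0.0214). Another Ak7 probe gave 1.15 without a call. The axonemal dynein Dnah9 had an interaction of 4.36 (SE 0.67, adjusted p = 0.0260), but at -4.08 and -3.34 its level with both transgenes overlapped that of rtTA (-3.25 and -4.60). Another Dnah9 probe gave -1.66, of opposite sign, and neither gene was called when the probes of a gene were averaged. Atoh7, a basic helix-loop-helix factor of retinal neurogenesis, stood at -2.69 and -1.50 with both transgenes and was well above background on only 1 of the other 6 +DOX arrays (interaction 6.09, SE 0.64, adjusted p = 0.00968). The neural adhesion genes Ctnna2 (5.07, SE 0.72) and Nrcam (3.55, SE 0.51) and the germ cell gene Boll (3.62, SE 0.55) were likewise highest with both (adjusted p 0.0222 to 0.0250), and another Nrcam probe gave 3.19 without a call. Atoh7 and these 3 were chosen after their values were seen.

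Pbld1, a phenazine biosynthesis-like protein, and Kcne1l, a potassium channel subunit, were also highest with both transgenes. Pbld1 read -2.59 and -2.79 with rtTA, -6.55 (not well above background) and -4.83 with Sox2, -4.76 and -5.18 with Oct4 and -0.64 and -0.03 with both transgenes (interaction 7.64, SE 0.75, adjusted p = 0.00968). Kcne1l had an interaction of 7.04 (SE 0.88, adjusted p = 0.0148). Plod2, a collagen lysyl hydroxylase, had one of 4.27 (SE 0.48, adjusted p = 0.0103), with each single transgene below rtTA and both transgenes above it. Ifi44, an interferon-induced gene, stood at -0.65 and -0.59 with both transgenes, against -3.79 and -3.70 with rtTA and -2.85 and -3.90 with Oct4 (interaction 3.68, SE 0.51, adjusted p = 0.0208).

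**Figure D3:**
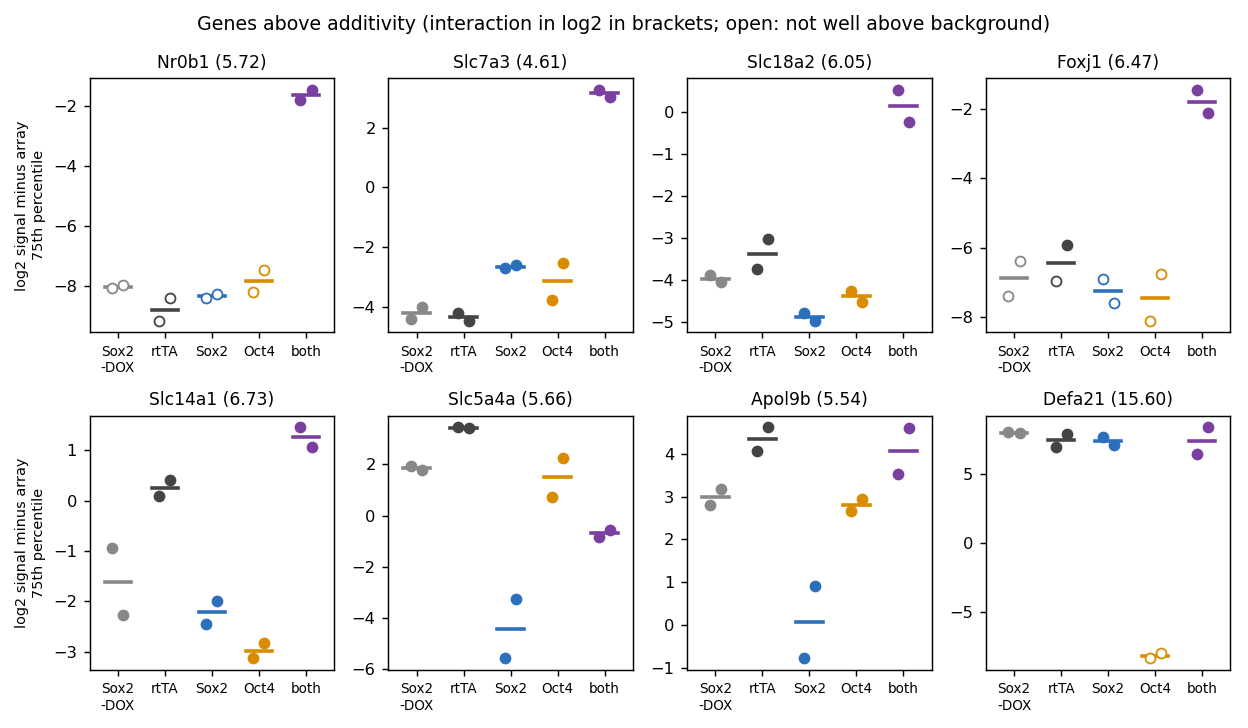
Each panel shows 1 gene called above additivity on all 10 arrays (points, log2 signal minus the array's 75th percentile) with group means as lines and open points where the probe was not well above background. Nr0b1, Slc7a3, Slc18a2 and Foxj1 are high only with both transgenes, Slc5a4a and Apol9b are lowest with Sox2 alone, and Defa21 is at background only with Oct4 alone.

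A further form above additivity was a fall with Sox2 alone that was smaller or missing beside Oct4, seen in nutrient transporters of enterocytes. Slc5a4a, a sodium-glucose cotransporter family member, read 3.44 and 3.41 with rtTA, -5.56 and -3.25 with Sox2, 0.72 and 2.25 with Oct4 and -0.82 and -0.55 with both transgenes. It was 228-fold lower with Sox2 alone than with rtTA (limma, adjusted p = 0.00151). Between both transgenes and Oct4 alone the 4.52-fold difference did not pass the test (adjusted p = 0.128), and the interaction was 5.66 (SE 1.02, adjusted p = 0.0422). Its relatives Slc5a11, an inositol transporter, and Slc5a12, a lactate transporter, took the same form. Slc5a11 fell from 4.22 and 4.26 with rtTA to -3.55 and -1.06 with Sox2 and read 1.09 and 1.84 with Oct4 and 0.72 and 1.33 with both (interaction 6.10, SE 1.03, adjusted p = 0.0378). Slc5a12 was not well above background with Sox2 alone, at least 123-fold under rtTA, and the double-transgenic arrays at -3.41 and -1.11 overlapped the Oct4 arrays at -1.85 and -1.77 (interaction 6.94, SE 0.98, adjusted p = 0.0214). In all 3 the Sox2-only arrays were the lowest of the 8, and the groups with Oct4 lay between them and rtTA.

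The Sox2-only arrays were also the lowest of the 8 for the retinol dehydrogenase relative Rdh16f2 (interaction 6.27, SE 1.15, adjusted p = 0.0435) and the glucuronosyltransferase Ugt2b35 (4.21, SE 0.67, adjusted p = 0.0291), whose near-identical family members could share signal. The phosphate transporter Slc34a3 (5.01, SE 0.60, adjusted p = 0.0140) was chosen after its values were seen and was at least 80.8-fold lower with Sox2 alone than with rtTA. The sweet taste receptor subunit Tas1r2, chosen likewise, was not well above background only with Sox2 alone (3.84, SE 0.48, adjusted p = 0.0148). Apol9b, an interferon-inducible apolipoprotein L, read 4.06 and 4.62 with rtTA, -0.78 and 0.91 with Sox2, 2.66 and 2.94 with Oct4 and 3.52 and 4.61 with both transgenes (interaction 5.54, SE 0.81, adjusted p = 0.0237). Its level with both transgenes overlapped that of rtTA. Rtp4, an interferon-induced chaperone, was also lowest with Sox2 alone, with an interaction of 3.74 (SE 0.65, adjusted p = 0.0398), and Ciita, the master activator of MHC class II genes, one of 2.50 (SE 0.42, adjusted p = 0.0370), in its case with all transgenic groups below rtTA.

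In some genes the interaction was positive because both single responses were negative and did not add. Hao2, a peroxisomal hydroxyacid oxidase chosen after its values were seen, was not well above background in any transgenic +DOX group, at least 19.4-fold to 28.3-fold under rtTA, so that its interaction of 4.04 (SE 0.63, adjusted p = 0.0270) rests on levels that are bounds. St6galnac1, a goblet cell sialyltransferase, was likewise well above background on both arrays of only 1 +DOX group (interaction 3.31, SE 0.63, adjusted p = 0.0481). Nr2e3 was not well above background with Sox2 alone or with both transgenes (interaction 4.36, SE 0.75, adjusted p = 0.0390). Slc12a2, a chloride cotransporter of crypt cells, was measured everywhere, at 1.82 and 2.08 with rtTA, 0.75 and 1.16 with Sox2, 0.14 and 0.47 with Oct4 and 1.74 and 2.13 with both (interaction 2.63, SE 0.43, adjusted p = 0.0322). Defa21, a Paneth cell defensin, stood apart: it read 6.43 to 8.35 on the rtTA, Sox2 and double-transgenic arrays and was not well above background on the Oct4 arrays (-8.34 and -7.97). Its interaction was 15.60 (SE 0.86, adjusted p = 0.00107), the Oct4 arrays had a slide of their own, and the defensin genes are near-identical in sequence, so the value may not be of 1 gene.

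Among genes below additivity, the first form was a rise with Oct4 alone that was smaller or missing when Sox2 was present too. Pou5f1 itself was lower with both transgenes than with Oct4 alone, and the part of that difference here was not tested. Lmo1, a LIM-only transcriptional co-regulator, read -5.04 and -4.55 with rtTA, -2.89 and -2.96 with Sox2, 1.58 and 1.89 with Oct4 and -2.32 and -1.81 with both transgenes. It was 92.8-fold higher with Oct4 alone than with rtTA, and 13.9-fold lower with both than with Oct4 alone (interaction -5.67, SE 0.43, adjusted p = 0.00728). Mal, a membrane proteolipid of apical transport, stood at 2.26 and 3.08 with Oct4 and at -2.07 and -2.20 with both, beside the -2.94 and -3.08 of rtTA (interaction -6.57, SE 0.65, adjusted p = 0.00968). The glycosyltransferase B3galt5 (interaction -6.97, SE 0.85, adjusted p = 0.0148) and the sphingolipid synthesis subunit Sptssb (-6.48, SE 0.84, adjusted p = 0.0176) took the same form. In all 4 genes the Oct4 arrays lay above every other +DOX array.

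Pou3f1 (Oct6), another POU factor, read -4.81 and -4.33 with rtTA, -5.66 and -5.57 with Sox2, 1.02 and 2.86 with Oct4 and -5.04 and -3.83 with both transgenes, which is 83.3-fold higher with Oct4 alone than with both (interaction -5.34, SE 0.86, adjusted p = 0.0311). Asb9, a SOCS-box protein, was well above background with Oct4 alone only (-0.40 and -0.93), at least 55.0-fold over both transgenes (interaction -7.90, SE 0.83, adjusted p = 0.00968). The tubulin Tuba8 (-5.86, SE 0.77, adjusted p = 0.0178), the epidermal gene Dmkn (-4.65, SE 0.64, adjusted p = 0.0201) and the neurotrophin Bdnf (-2.22, SE 0.38, adjusted p = 0.0390) were also high with Oct4 alone. These 3 and Pou3f1 were chosen after their values were seen, and another Dmkn probe gave -2.64 without a call. Krtdap, a keratinocyte differentiation gene, and Tff1, a gastric trefoil peptide, were highest with Oct4 alone, with interactions of -3.51 (SE 0.65, adjusted p = 0.0466) and -2.84 (SE 0.53, adjusted p = 0.0470). The Krtdap call was lost with normexp background correction, a floor, no filter on dim probes, a variance trend, the 8 +DOX arrays only and the other base. Its interaction was as small in size as -0.29 over the alternatives. Irx2, chosen after its values were seen, rose with each transgene but less with both than the sum (interaction -4.99, SE 0.76, adjusted p = 0.0250). Another Irx2 probe gave -3.32 without a call.

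The 3 neighbouring fucosyltransferase genes moved alike. Fut2, which makes the H antigen of the gut surface, read -3.90 and -1.91 with rtTA, 0.72 and -0.84 with Sox2, 2.51 and 2.05 with Oct4 and -1.33 and -3.09 with both transgenes (interaction -7.33, SE 1.25, adjusted p = 0.0378). Sec1 had an interaction of -7.06 (SE 0.84, adjusted p = 0.0140) and Fut1, chosen after its values were seen, one of -4.55 (SE 0.48, adjusted p = 0.00968). Their probes lie on chromosome 7 at chr7:45517344-45517403, chr7:45546841-45546900 and chr7:45487534-45487593 (NCBI36/mm8). Each single transgene stood above rtTA and the level with both overlapped rtTA in Fut2, while for Sec1 and Fut1 the rtTA arrays were not well above background.

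The small proline-rich Sprr2 genes, which encode precursors of the cornified envelope and are induced in the stressed intestine, gave 5 called genes of 8 tested, all below additivity, beside 0.630% of all genes. Sprr2h was well above background with Oct4 alone (-2.99 and -1.83) and in no other +DOX group, at least 16.4-fold over both transgenes (interaction -6.18, SE 0.67, adjusted p = 0.00973). Sprr2d had the same form (-3.80 and -4.43 with Oct4, interaction -5.61, SE 0.72, adjusted p = 0.0160). Sprr2e was measured in every group, at 4.21 and 4.86 with rtTA, 6.69 and 6.38 with Sox2, 4.60 and 6.11 with Oct4 and 2.83 and 3.38 with both transgenes, the lowest of the 8 arrays (interaction -4.25, SE 0.71, adjusted p = 0.0376). Sprr2b (-4.05, SE 0.70, adjusted p = 0.0390) and Sprr2k (-3.93, SE 0.75, adjusted p = 0.0489) had the same order of groups. The remaining members were Sprr2f at -5.43 (SE 1.21, adjusted p = 0.0722), Sprr2g at -1.50 (adjusted p = 0.486) and Sprr2a1 at -0.91 (adjusted p = 0.399), of which another probe was called at -3.62. The family is near-identical in sequence, so these values may not be of separate genes, and all were chosen after their values were seen.

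Promoter letters were searched on both strands for the octamer ATGCAAAT (reverse ATTTGCAT), its core ATGCAA, which lies inside it, and the Sox motifs ACAAAG and ACAATG, in RefSeq windows of 250 bases before to 50 after each start (GRCm38.p6). An octamer was found in 1.44% of the 15418 windows of the 12172 tested genes with one, in 0.87% of the 115 windows of genes above additivity (1 gene, Pipox, a sarcosine oxidase with an interaction of 4.14, SE 0.59, adjusted p = 0.0222) and in 6.59% of the 91 windows of genes below. Those 6 genes of 72 were Pcyt1b, which holds it at 1 of its 2 annotated starts, and 5 Sprr2 genes, so that 5 of the 6 belong to 1 family at 1 locus. The core was in 8.12% of all windows, 13.0% and 17.6% of those above and below additivity, and a Sox motif in 21.5%, 29.6% and 24.2%. In the Sprr2 family 7 of 10 genes with a window held an octamer. In the tested members that held one, its core began 106 to 110 bases before the start. The windows of 3 members and of that Pcyt1b start are printed as 250 bases before the start, 5′ to 3′, with octamer, core and Sox matches in capitals, to show that the octamer sits at nearly the same place in the family. They lie at chr3:92385435-92385684, plus strand for Sprr2h, chr3:92338890-92339139, plus strand for Sprr2d, chr3:92351893-92352142, plus strand for Sprr2e and chrX:93674862-93675111, plus strand for Pcyt1b. A match is a string of letters and not an occupied site.
Sprr2h: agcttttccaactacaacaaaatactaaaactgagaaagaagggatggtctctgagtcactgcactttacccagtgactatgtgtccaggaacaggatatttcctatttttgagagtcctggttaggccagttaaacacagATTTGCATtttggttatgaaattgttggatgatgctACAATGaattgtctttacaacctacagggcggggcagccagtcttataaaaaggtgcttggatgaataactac
Sprr2d: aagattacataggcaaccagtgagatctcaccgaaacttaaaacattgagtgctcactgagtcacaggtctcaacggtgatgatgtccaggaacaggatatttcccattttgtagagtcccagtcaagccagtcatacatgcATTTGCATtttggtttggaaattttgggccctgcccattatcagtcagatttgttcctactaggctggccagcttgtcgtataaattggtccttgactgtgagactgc
Sprr2e: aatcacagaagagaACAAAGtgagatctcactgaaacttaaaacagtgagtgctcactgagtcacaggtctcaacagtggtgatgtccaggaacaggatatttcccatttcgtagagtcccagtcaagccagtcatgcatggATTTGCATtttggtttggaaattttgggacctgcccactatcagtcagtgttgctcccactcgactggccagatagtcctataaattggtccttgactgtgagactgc
Pcyt1b: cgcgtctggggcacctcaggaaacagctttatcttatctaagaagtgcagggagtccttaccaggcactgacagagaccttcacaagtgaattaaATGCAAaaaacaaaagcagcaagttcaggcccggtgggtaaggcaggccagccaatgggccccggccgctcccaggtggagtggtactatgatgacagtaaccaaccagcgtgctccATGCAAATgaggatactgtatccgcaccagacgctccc

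Pcyt1b, an enzyme of phosphatidylcholine synthesis, was well above background with each single transgene (-3.52 and -5.11 with Sox2, -4.51 and -4.38 with Oct4) and not with rtTA or with both. It was at least 4.37-fold higher with Sox2 alone than with both, and its interaction was -7.05 (SE 0.77, adjusted p = 0.00973). Another Pcyt1b probe gave -1.26 and was not called.

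The other form below additivity was a rise with Sox2 alone that was smaller or missing beside Oct4. Krt6a, a keratin of stratified and wounded epithelium, was not well above background on the rtTA arrays and stood at 3.07 and 2.10 with Sox2, -1.82 and -1.51 with Oct4 and 0.51 and -2.63 with both transgenes. It was higher with each single transgene (at least 640-fold and 33.6-fold over rtTA), and the level with both lay below the sum of these differences (interaction -10.11, SE 1.32, limma adjusted p = 0.0176). Rnf183, a ubiquitin ligase, read -4.73 and -4.81 with rtTA, 1.26 and 1.32 with Sox2, -1.92 and -0.70 with Oct4 and -1.07 and -0.81 with both (interaction -5.70, SE 0.56, adjusted p = 0.00968). Sdc3, a heparan sulfate proteoglycan, read -0.97 and -0.80 with rtTA, 3.30 and 2.50 with Sox2, 1.95 and 1.66 with Oct4 and -0.87 and -0.13 with both, and its interaction was -6.09 (SE 0.53, adjusted p = 0.00728). A further Sdc3 probe gave an interaction of 1.55, of opposite sign, and the gene was not called with its probes averaged. The Sox2-only arrays were the highest of the 8 in these 3 genes.

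The dehydrogenase genes Aldh3a1, Adh7 and Dhrs9 took this form, while Rdh16f2 lay above additivity. Aldh3a1, an aldehyde dehydrogenase of cornea and stomach, was not well above background with rtTA or Oct4 and stood at 1.05 and 0.78 with Sox2 alone and at -3.91 and -5.30 with both transgenes, 45.8-fold lower (interaction -6.29, SE 0.67, adjusted p = 0.00973). Adh7, the gastric alcohol and retinol dehydrogenase, read 1.41 and 1.26 with Sox2 alone and -2.23 and -2.87 with both (interaction -4.14, SE 0.77, adjusted p = 0.0464). Dhrs9, a short-chain retinol dehydrogenase, read -5.36 and -4.49 with rtTA, -0.51 and -0.79 with Sox2, -3.63 and -3.37 with Oct4 and -3.95 and -3.76 with both (interaction -4.63, SE 0.49, adjusted p = 0.00968).

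Developmental transcription factors were among them too, and Pax9, Msx2, Pax8 and Clu were chosen after their values were seen. Pax9, a factor of foregut endoderm, was well above background with Sox2 alone only (-1.14 and -3.89), at least 15.0-fold over both transgenes (interaction -5.81, SE 1.11, adjusted p = 0.0489). Msx2 was also well above background with Sox2 alone only (interaction -3.75, SE 0.61, limma adjusted p = 0.0322). The Msx2 call was lost with normexp background correction, a floor, a variance trend, the 8 +DOX arrays only and the other base. Its interaction was as small in size as -0.49 over the alternatives. The Pax9 call was lost with normexp, quantile normalization, no filter on dim probes, a floor, the 8 +DOX arrays only and the other base. Pax8 read -3.57 and -3.61 with rtTA, 0.32 and -0.36 with Sox2, -3.63 and -3.68 with Oct4 and -2.55 and -2.57 with both (interaction -2.47, SE 0.41, adjusted p = 0.0365). Clu, a chaperone of the regenerating intestine, rose 25.1-fold with Sox2 alone (adjusted p = 0.00151), while its 1.31-fold difference in the presence of Oct4 did not pass the test (interaction -4.26, SE 0.61, adjusted p = 0.0222). Ly6a (Sca-1), whose family members are alike in sequence, had an interaction of -5.37 (SE 0.84, adjusted p = 0.0271), and Fa2h, a fatty acid hydroxylase, one of -5.44 (SE 0.92, adjusted p = 0.0378). Teddm3 stood at 0.60 and 0.53 with Sox2 alone, at -2.30 and -5.44 with Oct4 alone and at -2.37 and -5.15 with both transgenes (interaction -8.73, SE 1.50, adjusted p = 0.0390). Gcnt3, a mucin core glycosyltransferase, and Gmds, which makes GDP-fucose, had interactions of -3.57 (SE 0.55, adjusted p = 0.0260) and -2.61 (SE 0.46, adjusted p = 0.0400), and both were chosen after their values were seen.

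**Figure D4:**
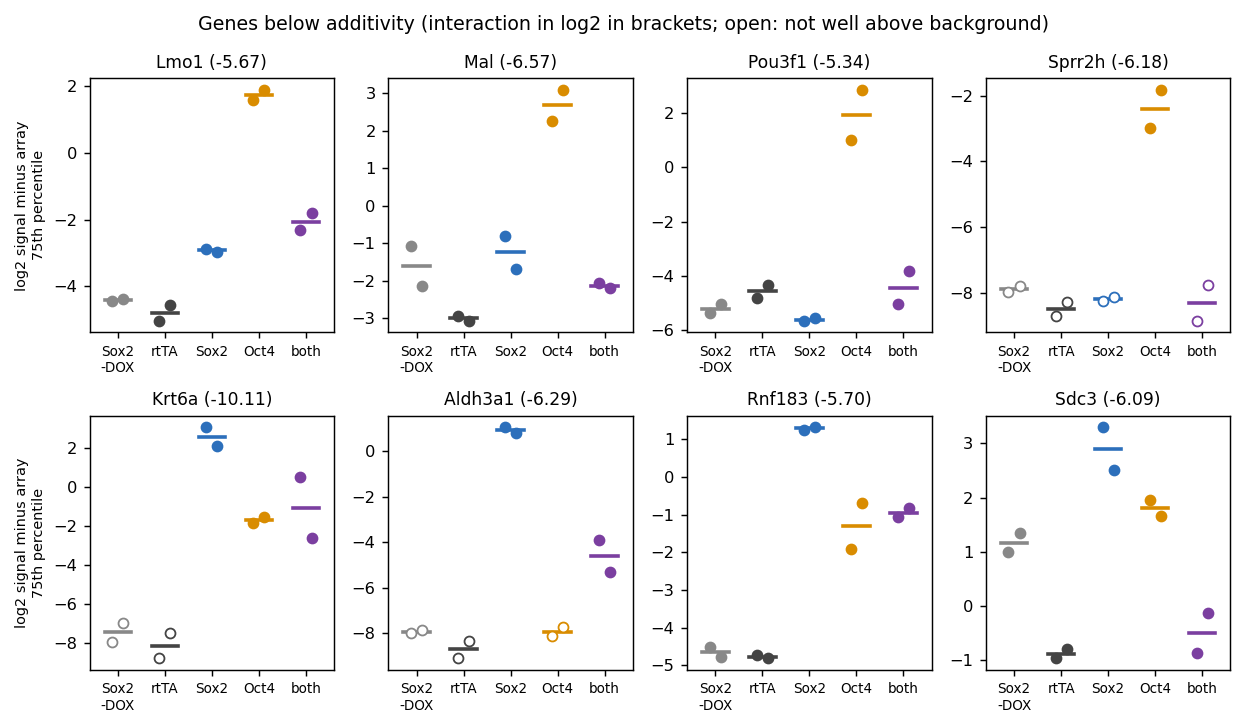
Each panel shows 1 gene called below additivity on all 10 arrays (points, log2 signal minus the array's 75th percentile) with group means as lines and open points where the probe was not well above background. Lmo1, Mal, Pou3f1 and Sprr2h are highest with Oct4 alone, and Krt6a, Aldh3a1, Rnf183 and Sdc3 with Sox2 alone.

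Gene lists are described by their counts and medians beside the median of 0.07 and the 1.42% called over all genes. None of the 31 brush border and digestion genes measured was called, and 28 had a positive interaction, with a median of 1.53. The median Sox2 response of this list was -3.31 without Oct4 and -1.68 with it. Lactase (Lct) had the largest interaction in the list, 9.34 (SE 2.22, adjusted p = 0.0832), but it was 1.49 when untreated TetON-Sox2 animals replaced rtTA as the base. The lists of intestinal stem cells (median 1.29, 2 of 23 called above: Slc12a2, Nr2e3) and Wnt targets (1.38, 1 of 22: the factor Tcf7 at 2.58, SE 0.49, adjusted p = 0.0476, another probe 2.21 without a call, nor one with both averaged) lay above the median of all genes. So did interferon response (0.98, 2 of 35: Ifi44, Rtp4) and MHC class II (1.70, 1 of 10: Ciita).

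Of the 37 lists, 11 had a median below that of all genes, among them the antimicrobial and acute mucosal response (-1.23, 0 of 26 called), cholesterol and fatty acid synthesis (-0.90, 0 of 27), Nrf2 antioxidant targets (-0.83, 1 of 24: Aldh3a1) and squamous epithelium (-0.71, 2 of 26: Krt6a, Krtdap). Stomach and foregut (-0.69, 1 of 16: Tff1) and cell cycle (-0.68, 0 of 32) followed, then the unfolded protein response (-0.60, 0 of 22), tuft cells (-0.41, 0 of 17), B cells and plasma cells (-0.07, 0 of 22) and pancreatic acinar cells (0.06, 0 of 9), and the other was the sex-linked list. Cell cycle genes had a median Sox2 response of 1.02 without Oct4 and of 0.38 with it. The median interaction of cell cycle genes was 0.03 without Sox2 replicate 1 and 0.03 without double-transgenic replicate 2, and that of tuft cells was 0.41 without Oct4 replicate 2, so that their signs rest on single arrays. The medians of B cells and of pancreatic acinar cells also changed sign with single arrays left out. Centring arrays on their median, another scaling, moved the median of all genes to -0.20, and the medians given for brush border, stem cells, Wnt targets, interferon response, MHC class II, the antimicrobial response, cholesterol synthesis, Nrf2 targets, squamous epithelium and stomach kept their sign under every scaling and every array left out.

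**Figure D5:**
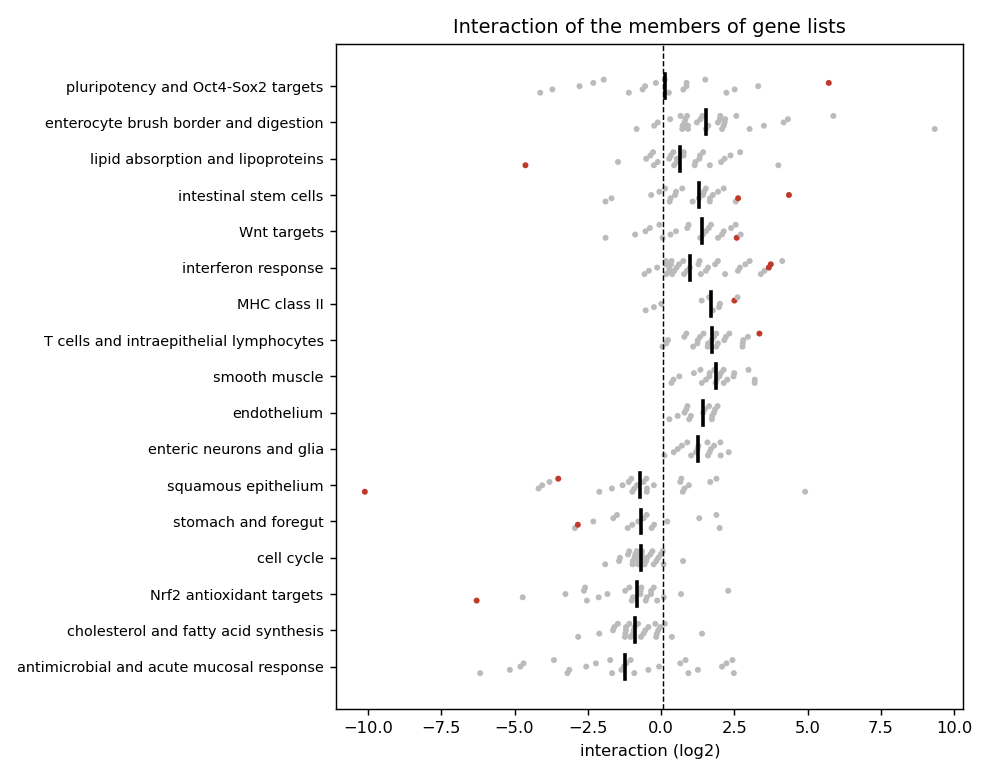
Points are the measured members of 17 gene lists by their interaction (log2), red where called by limma, with list medians as black bars and the median of all genes as a dashed line. All members of the smooth muscle, endothelium, enteric neuron and T cell lists have a positive interaction.

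Most marker lists of cells other than the epithelium had positive medians, although in the 4 described first only 1 gene was called. All 22 smooth muscle genes had a positive interaction, with a median of 1.88 beside 0.07 for all genes. So did all 15 of endothelium (1.44), all 17 of enteric neurons and glia (1.28) and all 25 of T cells and intraepithelial lymphocytes (1.73, with perforin, Prf1, called at 3.35, SE 0.64, limma adjusted p = 0.0494). Members of a list share the same arrays and are not independent observations. The smooth muscle list had means of 0.25 and 2.50 on the double-transgenic arrays, so the size of its interaction depends on the array. Other such lists were near the median of all genes: macrophages and granulocytes at 0.22 with 14 of 23 positive, B cells and plasma cells with 11 of 22 and pancreatic acinar cells with 5 of 9. The summed signal of the smooth muscle list, in multiples of the array's 75th percentile, was 284 to 557 with rtTA, 119 to 140 with Sox2, 185 to 357 with Oct4 and 125 to 690 with both transgenes. That of the T cell list was 23.2 to 53.6 with rtTA, 11.2 to 20.9 with Sox2, 8.58 to 10.1 with Oct4 and 11.5 to 20.0 with both, and that of the brush border list was 1488 to 1814, 299 to 608, 1489 to 1702 and 534 to 1017 in the same order. The endothelium list summed to 8.63 to 12.6, 5.80 to 11.4, 8.59 to 8.60 and 15.5 to 15.6, and the neuron and glia list to 12.9 to 14.5, 5.55 to 5.57, 9.52 to 11.5 and 6.65 to 15.6. Every member of these lists was well above background on the rtTA arrays. With Sox2 alone, Oct4 alone and both transgenes, 23, 23 and 24 of the 25 T cell genes were, and 21 of the 22 smooth muscle genes in each. The Prf1 call was lost with normexp background correction, quantile normalization, median centring, a floor and the other base, among further alternatives. In whole tissue, fewer cells of a type and less RNA per cell cannot be told apart, and the part that tissue composition has in the interaction was not tested.

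A comparison in which each difference lies within 1 slide was made as well: both transgenes minus rtTA against Sox2 with DOX minus Sox2 without. It holds the response to Oct4 as well as any interaction. Any effect of DOX enters it too, since only the Sox2 difference sets arrays with DOX against arrays without. Limma called 32 genes (0.168%), 28 higher (0.147%) and 4 lower (0.0210%). The count was 5 to 10 without any 1 of the Sox2 or rtTA arrays and 52 without double-transgenic replicate 1. Nr0b1 (7.44, adjusted p = 0.00250), Slc7a3 (5.95, adjusted p = 0.0165), Slc18a2 (4.45, adjusted p = 0.0229) and Ifi44 (4.42, adjusted p = 0.0229) were called in it, as were Atoh7, Ctnna2, Boll, Ak7 and Tas1r2. Lmo1, Mal, Krt6a, Rnf183, Sdc3, the 3 Slc5a genes and Slc14a1 were not. The comparisons share the rtTA, Sox2 and double-transgenic arrays, so that one is no independent check of the other.

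With untreated TetON-Sox2 animals in place of rtTA as the base, 145 genes were called and 118 of them were among the 270. All 70 called genes named here kept their sign on that base and 45 were called on it. The comparison on that base shares the Sox2, Oct4 and double-transgenic arrays with the interaction, so it is no independent check. It also sets a group without DOX beside groups with it. Leaving out single arrays, 12 of the 70 were called in all 10 fits: Nr0b1, Slc18a2, Slc14a1, Pbld1, Defa21, Lmo1, Mal, Fut1, Pcyt1b, Rnf183, Sdc3 and Dhrs9. Of the 70, 58 lost the call without rtTA replicate 1, 48 without rtTA replicate 2, 49 without Sox2 replicate 1, 20 without Sox2 replicate 2, 28 and 24 without Oct4 replicates 1 and 2, 7 and 27 without double-transgenic replicates 1 and 2, and 29 with either untreated array left out. Such a fit has 1 array in that group, which is assumed to vary like the others. Of the genes called in all 10 fits, Fut1 lost its call with normexp background correction and with signals set to a floor. Pcyt1b lost its call with normexp, and Sdc3 with its probes averaged. Over all alternatives the interaction smallest in size was -0.63 for Fut1 and -1.13 for Pcyt1b.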

How the data were processed

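Ileum RNA of 10 arrays was measured as one-colour Agilent spot intensity. The deposited intensity values are the processed signals, background-corrected by the authors' Feature Extraction software (9.1 per the submitters' processing notes, 9.5.3.1, 10.7.1.1 and 10.7.3.1 per the file headers). The series' normalized value table was not used. From the 41174 non-control probes, 31 were dropped, leaving 41143, of which 80.2% were named through RefSeq and 8146 kept the name in the files. Each array's 75th percentile was subtracted from the log2 signal. A probe was kept where some group had both of its arrays well above background (28752 probes). Each of the 19049 genes was represented by its brightest probe on average. Control spots were left out.

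All 5 groups were fitted in limma 3.58.1 (lmFit, eBayes, two-sided tests, R 4.3.3), with 5 residual degrees of freedom, and Benjamini-Hochberg adjustment was over all genes tested at 0.05. With 2 arrays per group, their number limits the precision. The contrast, the 37 gene lists and the members named were chosen with earlier results of these data known. The genes to be named were first Pou5f1, Sox2, Nanog, Sox21 and Cdx2. Of called genes above background in all 4 +DOX groups, the 10 most positive and 10 most negative were added. Of those above it in 1 to 3 groups, 8 and 8 were added. From each list came up to 3 members with the smallest interaction p, called or not, and not all of them are named. Other genes are said to be chosen after their values were seen, and some called genes are not reported here. Tables were handled in pandas 2.3.3 and numpy 2.4.6 under Python 3.11.15, and plots drawn in matplotlib 3.10.9. Alternatives covered background correction, scaling, filter, floor, probe choice, variance trend, base group and each array left out.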

Additional observations from a re-analysis of the deposited data

Results flagged for a closer look

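By the interaction test itself (limma, adjusted p), the Sox2 response differed with and without Oct4 in 150 genes that lay above additivity and 120 that lay below. All 70 genes named as called were picked out by this test, 43 of them by the naming rule and 27 after their values were seen. With untreated TetON-Sox2 animals as the base all 70 had the same sign and 45 were called, but that comparison shares all arrays except the base and is no independent check.

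Above additivity stood 34 named genes, in log2 units. The interactions were Nr0b1 5.72, Slc18a2 6.05, Slc7a3 4.61, Foxj1 6.47, Atoh7 6.09, Kcne1l 7.04, Slc14a1 6.73, Pbld1 7.64 and Plod2 4.27. Next in this group were Ifi44 3.68, Ctnna2 5.07, Boll 3.62, Nrcam 3.55, Pipox 4.14, Ak7 3.36, Dnah9 4.36, Slc22a3 5.21 and Slc5a11 6.10. Further interactions were Slc5a4a 5.66, Slc5a12 6.94, Apol9b 5.54, Ugt2b35 4.21, Rdh16f2 6.27, Slc34a3 5.01, Rtp4 3.74, Ciita 2.50 and Tas1r2 3.84. The remaining ones were Nr2e3 4.36, Hao2 4.04, Slc12a2 2.63, Tcf7 2.58, Prf1 3.35, St6galnac1 3.31 and Defa21 15.60.

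Below additivity stood 36 named genes, in log2 units. The interactions were Lmo1 -5.67, Mal -6.57, B3galt5 -6.97, Sptssb -6.48, Pou3f1 -5.34, Asb9 -7.90, Tuba8 -5.86, Dmkn -4.65 and Sprr2h -6.18. Next in this group were Sprr2d -5.61, Sprr2e -4.25, Sprr2b -4.05, Sprr2k -3.93, Bdnf -2.22, Krtdap -3.51, Tff1 -2.84, Fut2 -7.33 and Sec1 -7.06. Further interactions were Fut1 -4.55, Irx2 -4.99, Krt6a -10.11, Teddm3 -8.73, Rnf183 -5.70, Sdc3 -6.09 and Aldh3a1 -6.29. The remaining ones were Adh7 -4.14, Dhrs9 -4.63, Pax9 -5.81, Msx2 -3.75, Pax8 -2.47, Ly6a -5.37, Fa2h -5.44, Clu -4.26 and Pcyt1b -7.05. Others were Gcnt3 -3.57 and Gmds -2.61.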

How the results depend on the processing

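The interaction's count of 270 (150 higher, 120 lower) was 176 (83 and 93) with normexp and quantile normalization, 336 (154 and 182) with quantile normalization and 345 (141 and 204) with arrays centred on the median, which moved the share of higher calls to 40.9%. It was 148 (76 and 72) when dim probes were kept, 124 (67 and 57) with probes above background in all 4 +DOX groups, 105 (59 and 46) on the 8 +DOX arrays only and 145 (86 and 59) with untreated TetON-Sox2 mice as the base. Of the 270 genes, 121 were called with normexp, 246 with quantile and 244 with median scaling. Leaving out single arrays gave 24 to 556 calls, 11 to 401 higher and 13 to 155 lower. With the replicate number as a block the count was 247, of which 209 were among the 270. Same-numbered arrays are not shown to be paired: over the 10 pairs of groups the correlations of their deviations ran from -0.13 to 0.27, and 5 were over 0.1. All 270 kept their sign in every alternative run except 2 with signals set to a floor (268 of 270) and those not tested with fewer probes (137 of 137 tested). The within-slide count of 32 (28 higher, 4 lower) was 7 (4 and 3) with normexp, 43 (28 and 15) with quantile normalization, 45 (34 and 11) with median centring, 23 (21 and 2) with no filter, 4 (4 and 0) with probes above background throughout, 48 (43 and 5) with a floor, 16 (15 and 1) with a variance trend, and 39 (33 and 6) with the replicate block. Leaving out single arrays gave 5 to 52, 5 to 48 higher and 0 to 5 lower. The cause of these shifts was not tested, beyond fewer probes or arrays where an alternative leaves them out. A slide block could not be fitted for the interaction. Normexp used median signals on every array, since the Oct4 arrays' files hold no mean signal. Levels not well above background are bounds.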
